A study of Rattus norvegicus with 37 samples.

Results

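Cyp7a1, the cholesterol 7-alpha-hydroxylase, was followed through the livers of 37 rats with and without spinal cord injury (SCI). The gene is the row ENSRNOG00000009488 of the raw count table, 1 of 24613 genes, and the row was fixed by this identifier alone. The gene itself was chosen with earlier results of these data known. The table lists genes by Ensembl identifier without symbols, so the symbol Cyp7a1 was taken as given for this row and could not be checked with the tables used here. In RefSeq's GRCr8 assembly, which is not the Rn6 build of the counts, the nearest coding genes on either side of Cyp7a1 are Ubxn2b and Sdcbp. Coordinates in Rn6 were not used here.

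Cyp7a1 is an enzyme of hepatocytes that adds a hydroxyl group to cholesterol, the first and rate-limiting step of the classic pathway that turns cholesterol into bile acids. Bile acids returning from the gut hold its transcription down through the receptor FXR and the repressor SHP, and through a hormone released by the intestine, while in rodents dietary cholesterol raises it through LXR. Its messenger RNA is known to be short-lived and to follow the daily rhythm of light and feeding. The hour of tissue collection and the time since the last meal are not given in the sources used here.

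All rats were female Sprague-Dawley animals, aged 8 to 9 weeks at injury by a weight-based estimate, and poly(A) RNA of the perfused liver was sequenced. The In-Cage set held 15 rats: uninjured rats in standard cages (No SCI + Standard, n = 5), and rats with a T2 contusion of 25 g-cm in tiny cages (CONT SCI + Tiny, n = 5) or in large cages (CONT SCI + Large, n = 5). The Exercise set held 22 rats, all in tiny cages: No SCI (n = 4), the same contusion (CONT SCI, n = 4), a complete T2 transection (TX SCI, n = 4), and the contusion followed by swimming (CONT SCI + SWIM, n = 5) or by shallow water walking (CONT SCI + SWW, n = 5). Labels place collection 11.5 weeks after contusion and 8.5 weeks after transection, and uninjured rats at the age that matches the contused ones, so TX SCI differed from No SCI and from CONT SCI in age as well as in injury, which cannot be told apart. For the exercised rats the study's methods give a later collection, and another start and length of exercise, than the labels do, so time and exercise cannot be told apart there. Rats lived in pairs with a mate of their own group, and the labels do not say which rats shared a cage. The injured rats of the In-Cage set lived in other cages than the uninjured ones, so injury and cage cannot be told apart in that set.

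Between 20066978 and 36761953 reads per rat were counted on genes. The sets did not overlap in depth, with 20066978 to 25130252 reads in the In-Cage set and 26190364 to 36761953 in the Exercise set, so set and depth cannot be told apart. No pair of libraries of a group agreed within sampling noise (chi-square over genes, 68 pairs), and each rat was kept as a sample of its own. The hepatocyte, bile duct, macrophage and blood markers could not be matched to identifiers, so the labelled tissue was not checked against them, and their part in any difference was not tested.

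Cyp7a1 was well counted in every rat, with 1657 to 22629 reads, or 0.0054% to 0.0773% of a library. Counting alone gives these values an error of 0.665% to 2.46%. Levels are given as CPM, the count scaled to a common library size and normalised with TMM factors over all 37 rats. The highest rat, at 816 CPM, lay 14.8-fold above the lowest, at 55.1 CPM. In whole liver, fewer hepatocytes and less RNA per hepatocyte cannot be told apart.

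In the In-Cage set, the No SCI + Standard rats stood at 257, 157, 500, 222 and 286 CPM (replicates 1 to 5), a mean of 284 ± 130 CPM (SD, n = 5). Replicate 3 lay well above its 4 group mates. The CONT SCI + Tiny rats stood at 466, 620, 71.4, 393 and 447 CPM, a mean of 400 ± 202 CPM (SD, n = 5). Here 4 rats were at or above 393 CPM and replicate 3, with the lowest Cyp7a1 count of all 37 rats, was 8.69-fold below the highest of its group. The CONT SCI + Large rats stood at 350, 674, 212, 816 and 379 CPM, a mean of 486 ± 250 CPM (SD, n = 5). Both injured groups overlapped the uninjured one over most of its range.

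In the Exercise set, the No SCI rats had 131, 243, 176 and 92.1 CPM (replicates 1 to 4), a mean of 161 ± 64.9 CPM (SD, n = 4). The highest of these 4 rats, at 243 CPM, was passed by at least 1 rat in each of the other groups. The CONT SCI rats had 95.8, 645, 151 and 55.1 CPM, a mean of 237 ± 275 CPM (SD, n = 4). This group held both the lowest of all 37 rats, replicate 4, and the third highest, replicate 2, which lay 11.7-fold apart. The TX SCI rats fell into a low pair and a high pair, at 170, 166, 448 and 393 CPM, with a mean of 294 ± 148 CPM (SD, n = 4).

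Among the exercised rats, those that swam had 251, 426, 322, 85.7 and 545 CPM, a mean of 326 ± 174 CPM (SD, n = 5). Those that walked in shallow water had 446, 124, 225, 412 and 168 CPM, a mean of 275 ± 145 CPM (SD, n = 5). Of the swimming rats, 4 lay above the range of the uninjured rats of the set and 1, replicate 4, below it. Of the walking rats, 2 lay above that range and 3 within it.

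**Figure D1:**
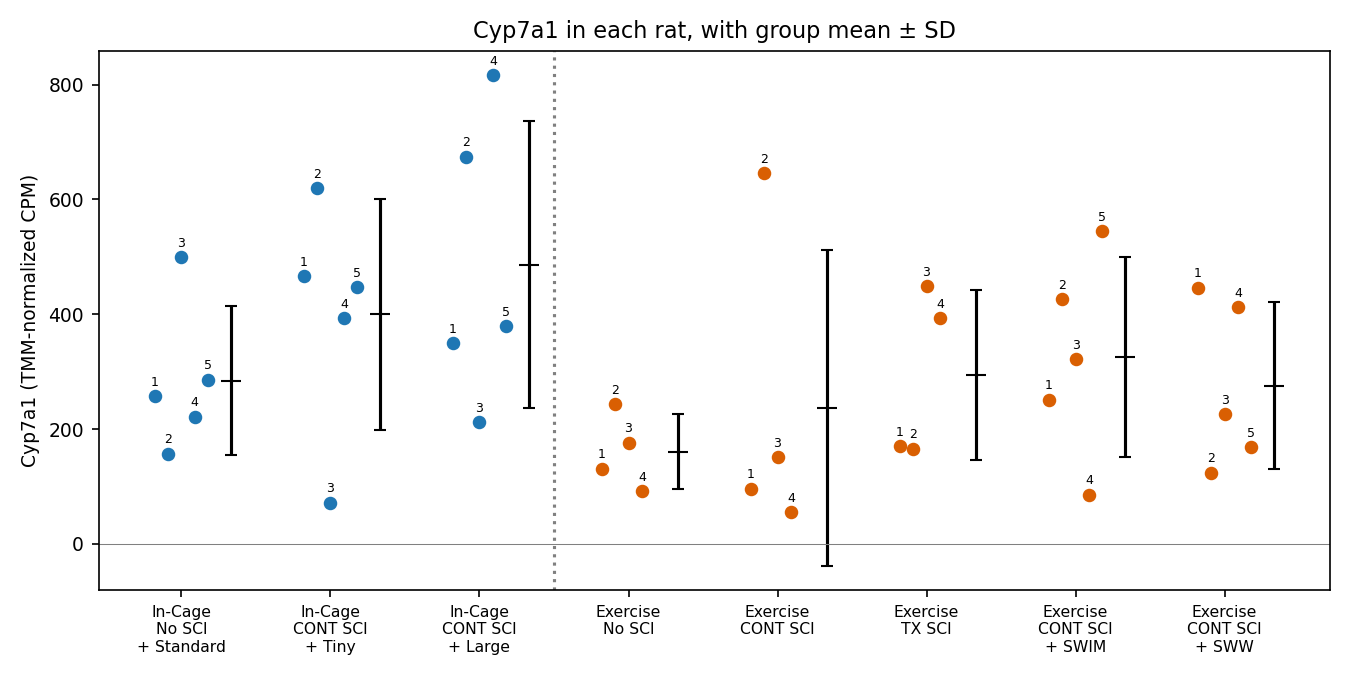
Cyp7a1 level of each rat in TMM-normalised CPM (y axis) in the 8 groups (x axis), In-Cage rats in blue and Exercise rats in orange, with the replicate number above each point and the group mean ± SD as a black bar to its right. Rats of a group lie 2.64-fold to 11.7-fold apart, and replicate 2 of the Exercise CONT SCI group, at 645 CPM, stands away from its 3 group mates at 55.1 to 151 CPM.

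Ordered by the mean, the groups ran from CONT SCI + Large (486 CPM) over CONT SCI + Tiny (400 CPM), CONT SCI + SWIM (326 CPM), TX SCI (294 CPM), No SCI + Standard (284 CPM), CONT SCI + SWW (275 CPM) and CONT SCI (237 CPM) down to No SCI (161 CPM). Sorting puts the closest groups side by side, so small differences between neighbours follow in part from it. The order also mixes the sets, which differ in depth. Every pair of neighbours in this order overlapped in range, and all but 1 difference was below the smaller SD of its pair. The exception was CONT SCI above No SCI in the Exercise set, where the means were 76.2 CPM apart against an SD of 64.9 CPM among the uninjured rats. By the median that pair changed places, with No SCI at 154 CPM and CONT SCI at 124 CPM, and so did the top pair, with CONT SCI + Tiny at 447 CPM and CONT SCI + Large at 379 CPM. Differences between group means made up 11.5% of the variance of log2(CPM + 1) in the In-Cage set and 16.5% in the Exercise set. Such a share is above nil even where groups do not differ, and grows with the number of groups. It was not corrected for this, so these values show no effect of group.

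The spread between rats of a group was larger for Cyp7a1 than for nearly all other liver transcripts. Its within-group SD, pooled over the 8 groups, was 0.96 on the log2(CPM + 1) scale, against 0.24 for the median of 9099 genes with a mean of at least 100 counts. Only 51 of these genes, or 0.561%, had a larger SD. The In-Cage rats gave Cyp7a1 an SD of 0.91, with 60 genes (0.659%) above it, and the Exercise rats gave 0.98, with 51 genes (0.561%) above it. Leaving out any 1 rat kept the share of genes with a larger SD between 0.495% and 0.813%, and among the 2907 genes with a mean of at least 1000 counts it was 0.826%. The uninjured groups had the lowest SDs, 0.59 for No SCI and 0.61 for No SCI + Standard, and CONT SCI of the Exercise set the highest, 1.51. Whether the groups differ in spread was not tested.

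**Figure D2:**
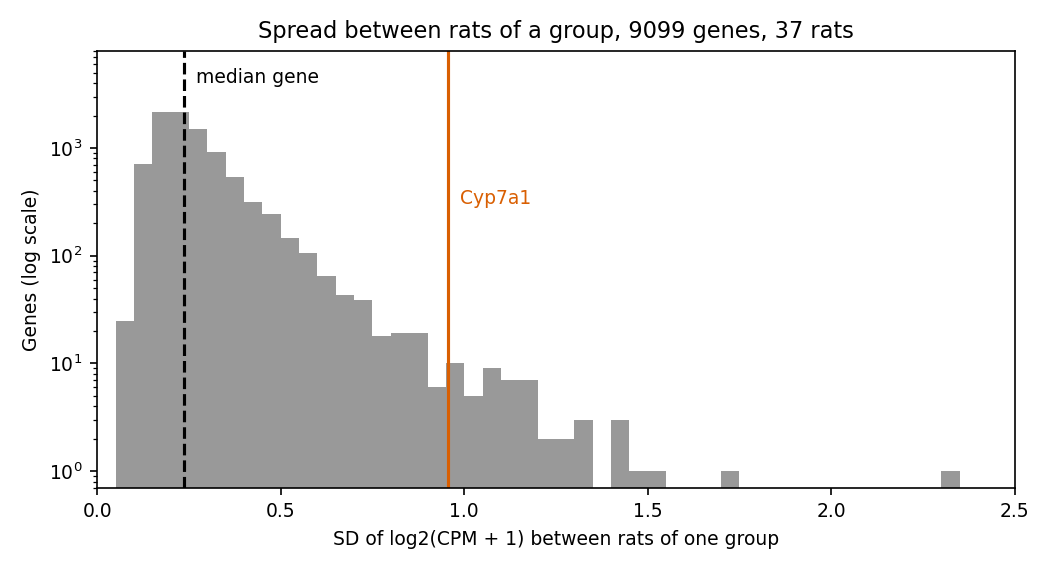
Number of genes (y axis, log scale) by the SD of log2(CPM + 1) between rats of the same group (x axis), for 9099 genes with a mean of at least 100 counts over 37 rats. The orange line marks Cyp7a1 at 0.96 and the dashed line the median gene at 0.24, and 51 genes have a larger SD than Cyp7a1. Of these, 1 gene, with an SD between 2.75 and 2.8, lies beyond the end of the axis.

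The In-Cage set asked what contusion did to the liver, and whether the cage in which the injured rat lived mattered. Cyp7a1 did not pass the test in any of its 3 comparisons, nor in a test for any difference among the 3 groups (edgeR quasi-likelihood F = 1.26, adjusted p = 0.484, with 4.82% of genes called). Without CONT SCI + Tiny replicate 3 that F was 3.04 (edgeR adjusted p = 0.235). Between CONT SCI + Tiny and No SCI + Standard the log2 fold change was 0.47 (SE 0.49, edgeR adjusted p = 0.522), a 1.39-fold higher level with a 95% interval of 0.649-fold to 2.96-fold, in a comparison that called 12.5% of genes. The tiny-cage rat was higher in 17 of 25 pairs of rats. The difference of the mean log2(CPM + 1) was 0.27 (exact permutation test, two-sided, p = 0.698), and leaving out 1 rat moved the edgeR value between 0.28 and 0.77 and the number of genes called from 1479 to between 15 and 2998. Without CONT SCI + Tiny replicate 3 the edgeR value was 0.755 (unadjusted p = 0.0150, adjusted p = 0.115 by edgeR). Between CONT SCI + Large and No SCI + Standard the log2 fold change was 0.76 (SE 0.36, edgeR adjusted p = 0.184), or 1.70-fold with an interval of 0.979-fold to 2.94-fold, where 0.0337% of genes were called. Of the 11852 genes tested there, 3480 had an unadjusted p under 0.05 (edgeR), and 31.5% had a smaller p than Cyp7a1. The large-cage rat was higher in 19 of 25 pairs, and leaving out 1 rat moved the value between 0.49 and 1.05. These comparisons share the uninjured rats.

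Cage size after the same injury was compared directly. CONT SCI + Large minus CONT SCI + Tiny was 0.28 on the log2 scale (SE 0.51, edgeR adjusted p = 1.00), or 1.22-fold with an interval of 0.552-fold to 2.68-fold, and the large-cage rat was higher in 13 of 25 pairs. edgeR called 0% of genes here, with 346 genes at an unadjusted p under 0.05 and 3 genes called by DESeq2. Without replicate 3 of the tiny-cage group, the rat at 71.4 CPM, the contrast was 0.012, and on the mean of log2(CPM + 1) it was 0.42 (exact permutation test, two-sided, p = 0.627). Either no difference or a level more than 2-fold higher in large cages lies within the interval.

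In the Exercise set, where all rats lived in tiny cages, injury could be compared without a change of cage. The direction after contusion alone rested on the measure and on 1 rat. CONT SCI minus No SCI was 0.56 on the log2 scale (SE 0.70, edgeR adjusted p = 0.998), with an interval of 0.493-fold to 4.40-fold, while 0.00801% of genes were called. The injured rat was higher in only 7 of 16 pairs, and on the mean of log2(CPM + 1) the difference was -0.0084 (exact permutation test, two-sided, p = 1.00, smallest possible p 0.0286 with 4 against 4). With the replicate number as a block the difference was -0.020 (edgeR adjusted p = 0.998). The replicate numbers did not pair the rats in any comparison, so fits with this block are no better matched than the others. Without CONT SCI replicate 2 it was -0.68 (edgeR adjusted p = 1.00).

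Transection gave a difference of larger size and smaller error. TX SCI minus No SCI was 0.87 (SE 0.38), or 1.83-fold with an interval of 1.02-fold to 3.30-fold, and the transected rat was higher in 12 of 16 pairs. Its unadjusted p by edgeR was 0.0444 and its adjusted p 0.399, in a comparison that called 0.0638% of genes and in which 11.1% of the genes tested had a smaller p. The exact permutation test gave p = 0.2 (two-sided, smallest possible 0.0286). With all groups of the set in a fit the value was 0.88 (unadjusted p = 0.187 by edgeR). Leaving out 1 rat moved it between 0.60 (without TX SCI replicate 3, unadjusted p = 0.146 by edgeR) and 1.14 (without No SCI replicate 2, unadjusted p = 0.0149 by edgeR). The low pair of transected rats, at 166 and 170 CPM, lay within the uninjured range and the high pair, at 393 and 448 CPM, above it. TX SCI minus CONT SCI was 0.30 (SE 0.68, edgeR adjusted p = 0.888, 0.0321% of genes called), with an interval of 0.433-fold to 3.49-fold, or 0.79 on the mean of log2(CPM + 1) (exact permutation p = 0.343) and 0.92 with the replicate block.

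Exercise after contusion was compared with contusion alone. CONT SCI + SWIM minus CONT SCI was 0.46 (SE 0.72, edgeR adjusted p = 0.836, 0.008% of genes called), or 1.37-fold with an interval of 0.453-fold to 4.15-fold, and the swimming rat was higher in 13 of 20 pairs. For CONT SCI + SWW minus CONT SCI the value was 0.24 (SE 0.76, edgeR adjusted p = 0.889, 0.759% of genes called), or 1.18-fold with an interval of 0.351-fold to 3.96-fold, and the walking rat was higher in 14 of 20 pairs. On the mean of log2(CPM + 1) these differences were 0.86 for swimming and 0.70 for walking (exact permutation tests, two-sided, p = 0.333 and p = 0.397). With the replicate block, which left out SWW replicate 5, walking gave 1.01, against 0.37 without that rat alone. Both comparisons share the 4 CONT SCI rats, whose spread on the log2 scale was the widest of the 8 groups. Between the forms of exercise, CONT SCI + SWIM minus CONT SCI + SWW was 0.23 (SE 0.48, edgeR adjusted p = 0.906), or 1.17-fold with an interval of 0.567-fold to 2.42-fold. edgeR called 0% of genes between them, with 680 genes at an unadjusted p under 0.05 and 14 called by DESeq2.

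Set against uninjured rats, the exercised rats stood higher by point estimate. CONT SCI + SWIM minus No SCI was 1.02 (SE 0.45), or 2.02-fold with an interval of 1.02-fold to 4.03-fold, and the swimming rat was higher in 16 of 20 pairs. By edgeR its unadjusted p was 0.0453 and its adjusted p 0.468, with 0.00796% of genes called and 9.68% of genes at a smaller p. With all groups of the set in a fit its unadjusted p was 0.119 (edgeR). Leaving out 1 rat moved the value between 0.75 (without SWIM replicate 5, unadjusted p = 0.108 by edgeR) and 1.30 (without No SCI replicate 2, unadjusted p = 0.0327 by edgeR). With the replicate block, which also left out SWIM replicate 5, the value was 0.64 (edgeR adjusted p = 0.311). CONT SCI + SWW minus No SCI was 0.77 (SE 0.40, edgeR adjusted p = 0.293, 0.394% of genes called), or 1.71-fold with an interval of 0.929-fold to 3.15-fold, higher in 14 of 20 pairs. Exact permutation tests gave p = 0.183 for swimming and p = 0.206 for walking (two-sided, smallest possible 0.0159). Neither difference is a call, and these comparisons share the same 4 uninjured rats with CONT SCI and TX SCI. Over the 5 groups of the set, the test for any difference gave F = 0.749 (edgeR adjusted p = 0.747, 2.65% of genes called).

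**Figure D3:**
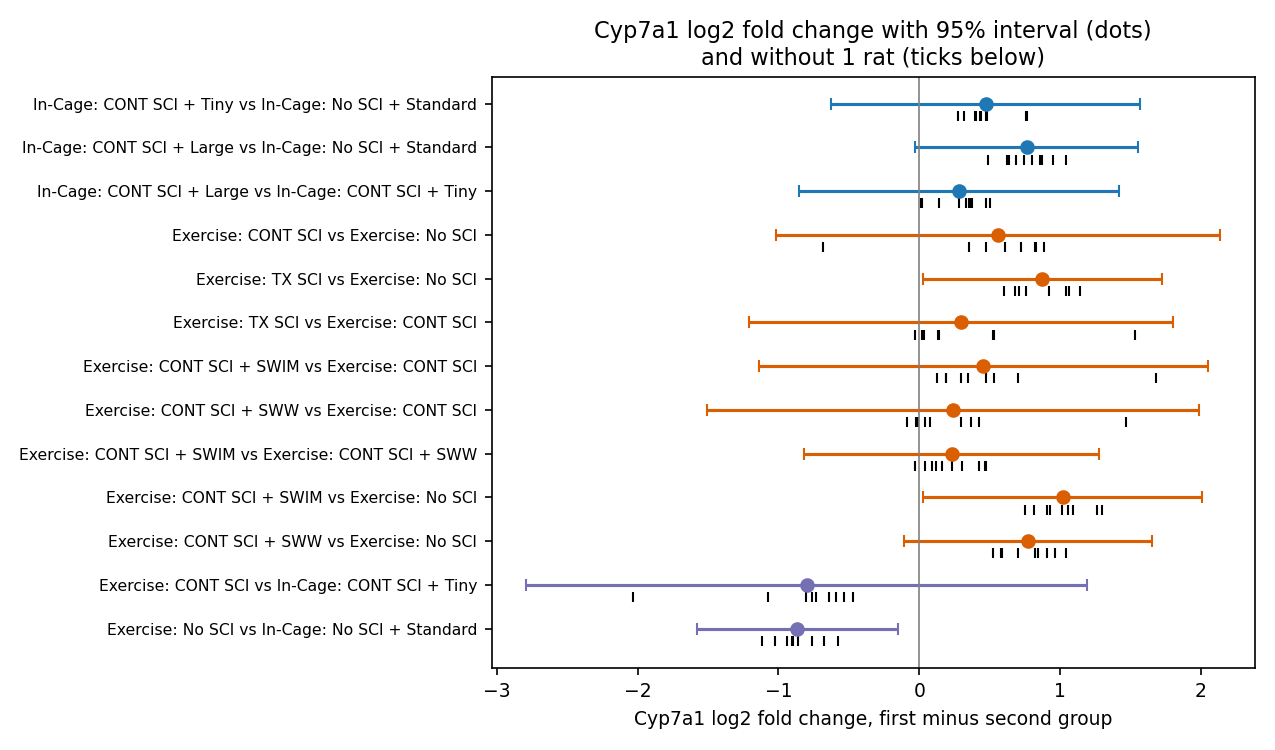
Log2 fold change of Cyp7a1, first minus second group named (x axis), for the 13 comparisons (y axis), with dots for the edgeR estimate, bars for its 95% interval and black ticks for the fits that leave out 1 rat. In the 11 comparisons within a set the estimates run from 0.23 to 1.02, and without CONT SCI replicate 2 the CONT SCI minus No SCI estimate moves to -0.68.

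Replicate 2 of the Exercise CONT SCI group decided several of these values. Without it, the remaining CONT SCI rats had 55.1 to 151 CPM, and the differences of the other injured groups from them became larger. TX SCI minus CONT SCI then became 1.53 (unadjusted p = 0.0070 by edgeR, adjusted p = 0.320). CONT SCI + SWIM minus CONT SCI became 1.68 (unadjusted p = 0.0147, adjusted p = 0.400 by edgeR) and CONT SCI + SWW minus CONT SCI became 1.47 (unadjusted p = 0.0217, adjusted p = 0.197 by edgeR). The test for any difference in the Exercise set then gave F = 3.13 (unadjusted p = 0.0384, adjusted p = 0.236 by edgeR). None of the 100 fits that left out 1 rat of a comparison within a set called Cyp7a1, and none of the 66 fits with another setting did.

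The sets were compared where they held like groups. The contusion effect in the Exercise set minus that in the In-Cage set was 0.08 on the log2 scale (SE 0.91, interval -1.86 to 2.02, edgeR adjusted p = 0.965, 0.199% of genes called), so a difference of several-fold either way lies within the interval. The uninjured rats lived in tiny cages in the Exercise set and in standard cages in the In-Cage set. Set and cage of the uninjured rats thus cannot be told apart in this difference. CONT SCI of the Exercise set minus CONT SCI + Tiny of the In-Cage set, the same injury in the same cage, was -0.80 (SE 0.85, edgeR adjusted p = 0.478), in a comparison that called 45.1% of genes. Without CONT SCI replicate 2 it was -2.03 (edgeR adjusted p = 0.0582).

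The uninjured rats gave the only call for Cyp7a1 among the 13 comparisons. No SCI of the Exercise set minus No SCI + Standard of the In-Cage set was -0.87 (SE 0.33, edgeR adjusted p = 0.0437), or 0.549-fold with an interval of 0.334-fold to 0.902-fold. The Exercise rats ranged from 92.1 to 243 CPM and the In-Cage rats from 157 to 500 CPM, and the Exercise rat was higher in 3 of 20 pairs. As 51.4% of genes were called between these groups, a call there is no result about Cyp7a1, and set, depth and cage changed together. The call was lost in 6 of 9 fits that left out 1 rat (replicates 1, 3 and 5 of the In-Cage group and 1, 3 and 4 of the Exercise group). It was also lost with the replicate block (edgeR adjusted p = 0.0642), a fit that left out In-Cage replicate 5 as well. The replicate numbers did not pair these rats, with correlations of same-numbered rats from -0.294 to -0.108. The exact permutation test gave p = 0.0873.

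Genes that varied with Cyp7a1 from rat to rat were sought in each set alone, by Pearson's r of log2(CPM + 1) over 9098 genes with a mean of at least 100 counts, and ranked by the smaller of the r of both sets. These r are descriptions over rats that share group, library depth and normalisation, and carry no p. The named genes were picked as the extremes of r in these same rats, so a high r and matches in single rats follow from the pick. The gene most like Cyp7a1 was ENSRNOG00000020811, with r = 0.716 over the 15 In-Cage rats (Spearman's rho 0.825) and r = 0.748 over the 22 Exercise rats (rho 0.748). It ranged from 78.9 to 192 CPM (median 100.1) in the In-Cage set and from 84.1 to 257 CPM (median 121) in the Exercise set. Without the 2 rats farthest from the median its r was 0.856 and 0.735. It was at 190 CPM in CONT SCI replicate 2, the rat that stood high in Cyp7a1, against 87.2 to 118 CPM in the other 3 rats of that group. In CONT SCI + Tiny replicate 3, the low rat of its group, it had its lowest value, 78.9 CPM. The low and high pairs of transected rats were not apart in this gene, at 122 and 124 CPM against 120 and 132 CPM. Next came ENSRNOG00000007387, with r = 0.648 and 0.762.

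The most opposite genes were ENSRNOG00000026799, with r = -0.597 over the In-Cage rats and -0.816 over the Exercise rats, and ENSRNOG00000023896, with r = -0.656 and -0.591. Without the 2 rats farthest from the median the r of the first were -0.542 and -0.827 and those of the second -0.499 and -0.468, and Spearman's rho of the second was -0.754 and -0.451. ENSRNOG00000026799 moved within a narrow range, 3.97 to 6.16 CPM in the In-Cage set and 3.62 to 7.11 CPM in the Exercise set. ENSRNOG00000023896 ranged more widely, from 13.9 to 79.5 CPM and from 6.60 to 59.1 CPM. With the group means removed, the r of these 4 genes lay between 0.651 and 0.737 for the like and between -0.802 and -0.628 for the opposite ones. The identifiers could not be matched to names.

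**Figure D4:**
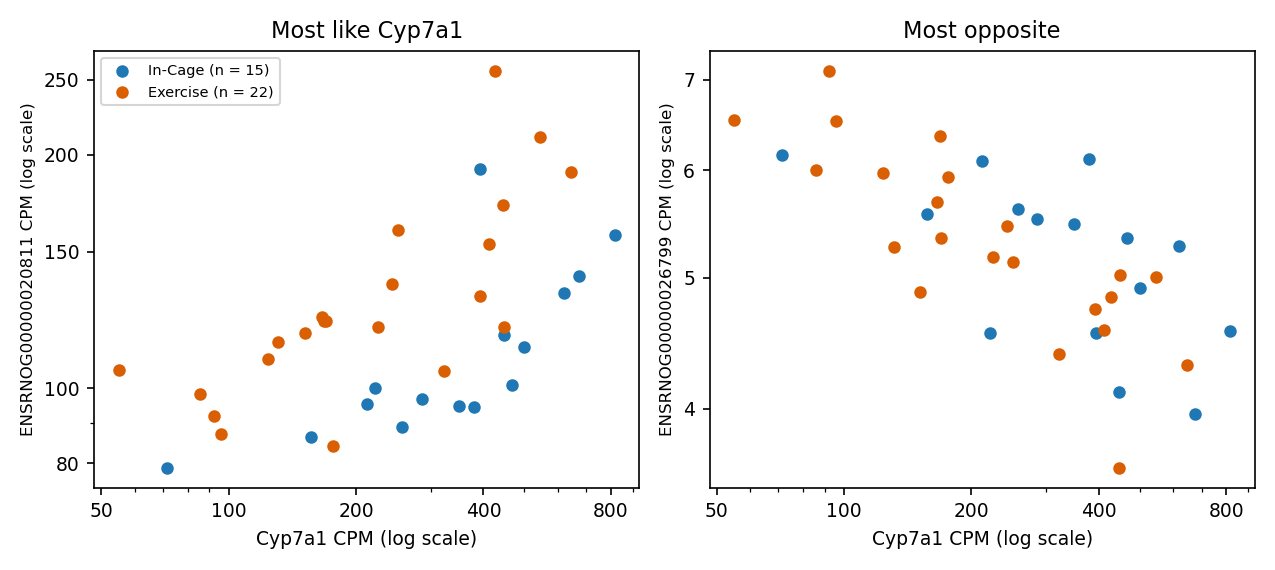
CPM of the gene most like Cyp7a1 (left) and of the most opposite gene (right) on the y axes against Cyp7a1 CPM on the x axes, all on log scales, with 1 point per rat, In-Cage in blue (n = 15) and Exercise in orange (n = 22). The left panel rises (r = 0.716 and 0.748) and the right panel falls (r = -0.597 and -0.816) in both sets, as both genes were picked by these r.

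The lists of like genes of the sets were then compared. An r of at least 0.7 was reached by 15 genes in the In-Cage set (0.165% of all) and by 29 in the Exercise set (0.319% of all), and 1 gene was in both lists, 6.67% of the first and 3.45% of the second. An r of -0.7 or below was reached by 4 and 6 genes, with 0 in both. Across all 9098 genes, which are not independent replicates, the correlation of the r in the In-Cage set with the r in the Exercise set was -0.0957 (Pearson), or 0.263 with group means removed, and 41.3% of genes had the same sign in both.

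**Figure D5:**
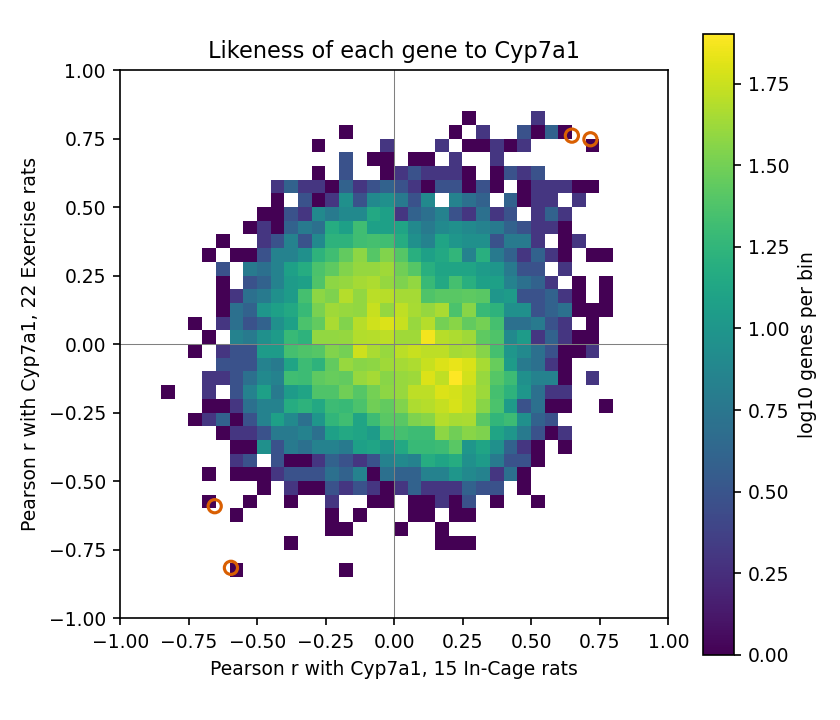
Pearson's r with Cyp7a1 over the 15 In-Cage rats (x axis) and over the 22 Exercise rats (y axis) for 9098 genes, coloured by log10 of the number of genes per bin. Orange circles mark the most like genes at the top right and the most opposite genes at the bottom left, and across genes Pearson's r between the axes is -0.0957, or 0.263 when the group means are removed first.

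Properties of the libraries were set beside the Cyp7a1 level, and no relation passed the test. In each set the level was correlated with the total count, the number of genes detected and the share of counts in the 10 most abundant genes, 6 relations in all. Pearson's r ran from -0.334 to 0.253, and the smallest adjusted p was 0.408 for Pearson's r and 0.300 for Spearman's rho (permutation tests with 100000 resamples, Benjamini-Hochberg over the 6 relations).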

How the data were processed

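Liver RNA of 37 rats was sequenced with a stranded poly(A) kit. The authors aligned reads to Rn6 with STAR, counted them per Ensembl gene with HTSeq in strand-aware mode, left out mitochondrial genes and deposited 1 table of raw counts without normalization. All 37 columns were used, and groups came from the sample labels.

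Counts were analysed in R 4.3.3 with edgeR 4.0.16 (TMM, low genes removed by filterByExpr at min.count 10 and min.total.count 15, robust glmQLFit and glmQLFTest) over all genes of the groups compared. An adjusted p (Benjamini-Hochberg) under 0.05 was a call, and the SE is the size of the log2 fold change divided by the square root of F. Levels are TMM CPM, and spread and likeness used log2(CPM + 1), a pseudocount of 1, for genes with a mean of at least 100 counts. Intervals are 95% intervals of the edgeR fit. The scripts were tested on simulated data. The p-values treat rats as separate samples, although cage mates may not be independent, so SEs and p-values may be too small.

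Alternatives were DESeq2 1.42.0, RLE factors, no filter, all groups in a fit, the replicate number as a block, an exact permutation test and each rat left out. In comparisons of groups of unequal size the block kept only replicate numbers found in both, so a rat of the larger group was left out. The settings for the share of genes with a larger spread were chosen after seeing the data. The gene, lists and tests were chosen with earlier results of these data known. By the rule for named genes, Cyp7a1 is given in every comparison, with the 2 genes most like it and the 2 most opposite. The RefSeq table (47357 genes) matched 0 Ensembl identifiers, so gene lists of bile acid synthesis, cell type markers and partner genes were not analysed here, and no sequence of the gene was at hand.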

Additional observations from a re-analysis of the deposited data

Results flagged for a closer look

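In the Exercise CONT SCI group, replicate 2 had 645 CPM of Cyp7a1, and the gap to the nearest of its 3 group mates was 0.837 of the range of the group, above Dixon's critical value for 4 samples at the 95% level. On the log2(CPM + 1) scale, a check added after seeing the data, its gap ratio was 0.592 and did not pass. On that scale another rat did: replicate 3 of the In-Cage CONT SCI + Tiny group, at 6.18 on the log2 scale (71.4 CPM), whose gap was 0.789 of the range of its 5 rats, against 0.587 in CPM. Each scale thus marked 1 of 8 groups. Chance alone marks about 1 in 20 groups at the 95% level. With 8 groups looked at on each scale, 1 mark can readily arise by chance, so the marks show no excess over it. Both rats were kept in the comparisons above, and values without them stand beside those that moved most.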

How the results depend on the processing

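Cyp7a1 kept sign and call in 156 of 173 fits without 1 rat and 83 of 90 with another setting. Tests for any difference could not change sign, and all results but 1 began without a call. With another setting the sign changed for CONT SCI minus No SCI (replicate block -0.020, permutation test -0.0084). It also changed for the difference between sets in the contusion effect (replicate block -0.17). The call between the uninjured groups was lost in 6 of 9 fits without 1 rat and 4 of 6 settings. It was lost without a filter (-0.85, edgeR adjusted p = 0.0719), with all groups in a fit (-0.88, 0.225) and with the replicate block (-0.84, 0.0642). The permutation test lost it too (-0.82, p = 0.0873), while DESeq2 kept it (adjusted p = 0.0202). The cause was not tested. Without 1 rat, the log2 values ran from -0.68 to 0.89 for CONT SCI minus No SCI, from -0.032 (without CONT SCI replicate 4) to 1.53 for TX SCI minus CONT SCI, from -0.090 (without CONT SCI replicate 4) to 1.47 for CONT SCI + SWW minus CONT SCI, from -0.033 (without SWIM replicate 5) to 0.47 for CONT SCI + SWIM minus CONT SCI + SWW, from -1.12 to -0.57 for the uninjured groups and from -1.16 (without CONT SCI replicate 2) to 0.40 for the difference between sets. The sign turned in 11 of these fits: 1 each for CONT SCI minus No SCI (without CONT SCI replicate 2), TX SCI minus CONT SCI and SWIM minus SWW (the rats just named), in 3 for SWW minus CONT SCI (SWW replicate 1, CONT SCI replicates 1 and 4) and in 5 for the difference between sets (CONT SCI replicate 2, No SCI replicates 1 and 4, CONT SCI + Tiny replicate 3, No SCI + Standard replicate 3). DESeq2 called more genes than edgeR: in the In-Cage set 2531 against 1479 for CONT SCI + Tiny and 1387 against 4 for CONT SCI + Large, each minus No SCI + Standard; in the Exercise set, minus No SCI, 63 against 1 for CONT SCI, 291 against 8 for TX SCI, 200 against 1 for SWIM and 931 against 50 for SWW; and minus CONT SCI, 363 against 4 for TX SCI, 254 against 1 for SWIM and 910 against 96 for SWW. For any difference in a set it called 2030 against 584 genes (In-Cage) and 1396 against 346 (Exercise), and for the difference between sets 774 against 25. With the other settings the fewest were 899 for CONT SCI + Tiny minus No SCI + Standard, 20 for SWW minus CONT SCI, 12 for SWW minus No SCI and, with the replicate block, 4 for any In-Cage difference and 124 for any Exercise difference. Without 1 rat, the counts against No SCI + Standard ran 0 to 2020 for CONT SCI + Large and 15 to 2998 for CONT SCI + Tiny. Against CONT SCI they ran 0 to 533 for SWW and 1 to 234 for TX SCI. SWW against No SCI gave 2 to 1684. For any difference they ran 0 to 2197 (In-Cage) and 159 to 612 (Exercise), and for the difference between sets 1 to 2010. The background shares thus changed with the rat left out as well as with the test and setting. The replicate numbers did not pair the rats, since in no comparison was every same-numbered pair correlated above 0.1 (-0.546 to 0.651). Whether more rats or more depth would change a call was not tested.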
